A study of Mus musculus with 8 samples.

Results

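Integrins are transmembrane receptors made of an alpha and a beta chain, through which cells hold on to the extracellular matrix. In endothelium, integrin alpha v beta 3 binds vitronectin, fibronectin and other ligands with an RGD motif and is known for its presence on growing vessels, while beta 1 integrins bind collagens, fibronectin and laminins. BMP9 and BMP10 act on endothelial cells through the receptor ALK1, and SMAD4 is the partner with which receptor-activated SMADs bind DNA. The loci of 10 mouse integrin genes were examined for SMAD4 peaks: Itgb3, Itgav, Itgb5, Itgb1, Itga5, Itga1, Itga2, Itga11, Itga6 and Itgb4. They are 10 of 21887 protein-coding genes on the assembled chromosomes. They were selected on the called peaks of this series, which were known when the list was drawn up, so their peak counts and levels describe them and were given no test. A peak was taken as belonging to a locus when its summit lay inside the RefSeq gene body or within 100 kb of it, and the nearest protein-coding gene was recorded for each. This gave 7 of the 1133 peaks of unstimulated cells and 25 of the 4333 peaks of stimulated cells, and no peak fell into the windows of more than 1 of the 10 genes.

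The study mapped SMAD4 by ChIP-seq in MS1, an established mouse endothelial line from pancreatic islets, after serum starvation for 24 h. Unstimulated cells received fresh medium and stimulated cells 1 ng/mL recombinant BMP9/10, and each condition had 2 SMAD4 immunoprecipitate (IP) and 2 input DNA samples, 8 in all. The labels do not give the length of stimulation or say whether the samples of a group were separate cultures, and all results come from this cell line. In the titles of the stimulated IP samples stand the letters KD, left unexplained by the labels, whose descriptions of these samples give SMAD4-bound DNA after stimulation. Stimulated values below are thus from the IP libraries so labelled. The authors merged the libraries of a condition before calling peaks, so a locus has 1 value per condition, there is no replicate error, and no difference between conditions has a replicate check. The unstimulated peaks rest on 52971023 IP tags and the stimulated peaks on 41044888. ChIP-seq gives no RNA level, so the endothelial label could be set only against peak positions. All 7 endothelial marker genes looked up (Cdh5, Pecam1, Kdr, Tek, Emcn, Cldn5 and Eng) were nearest to a stimulated peak and 5 of them to an unstimulated one, beside 12.2% and 3.79% of all protein-coding genes. Of 5 mural, 4 platelet and 4 pancreatic markers 0 were nearest to a peak of either list, and of 4 leukocyte markers 1, Ptprc, was in both; at that background such short lists say little. Within 100 kb of a stimulated peak lay all 7 endothelial and all 4 platelet markers (Ppbp, Pf4, Gp1ba and Itga2b). So did 1 of 5 mural, 1 of 4 leukocyte and 1 of 4 pancreatic markers, and 36.5% of all protein-coding genes. The marker lists were drawn up with earlier results of these data known, and their counts were given no test.

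The peak at Itgb1, which encodes the beta 1 chain shared by most of the matrix receptors described here, was the only one found over a member's promoter, and its sequence is therefore shown. RefSeq promoters (GRCm38.p6, the assembly behind mm10) were at hand for 7 of the 10 genes, and not for Itgb3, Itgb4 and Itga6. The stimulated peak (chromosome 8, 128685540 to 128685748) had its summit 28 bp before the annotated transcription start. The 250 bases before that start on the plus strand (chr8:128685404-128685653) are given below, 5′ to 3′. Capitals mark matches to GTCT, CAGAC and GGCGCC, short motifs that SMAD proteins are known to bind, on either strand, with overlapping matches merged. The peak covers the sequence from base 137 onward, and its summit is base 223. The stretch holds 114 of the 209 bases of the peak. The peak runs on past the end of the RefSeq promoter, and that part was not searched.

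Itgb1 promoter: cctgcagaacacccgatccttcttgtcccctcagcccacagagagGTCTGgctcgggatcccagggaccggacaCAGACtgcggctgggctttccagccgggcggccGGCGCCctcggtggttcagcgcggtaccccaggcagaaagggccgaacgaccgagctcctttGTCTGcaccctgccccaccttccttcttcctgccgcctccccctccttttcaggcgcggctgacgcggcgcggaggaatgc

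The window had 3 matches to GTCT, 3 to CAGAC, which overlap them, and 1 to GGCGCC. It had 0 matches to the palindrome GTCTAGAC, to GGAGCC and to the E-box CAGGTG. Of these, 1 GTCT and 1 CAGAC match, at the same place, lay under the called peak, and the GGCGCC match lay outside it. Such matches are common: among 32851 RefSeq promoters of 300 bp, 88.0% hold GTCT, 49.6% CAGAC, 11.9% GGCGCC, 30.8% GGAGCC, 20.2% CAGGTG and 0.213% GTCTAGAC, on either strand. The stretch shown is 68% G and C, against a median of 52.7% over those promoters, which also hold 50 bases after the start. A stimulated peak overlapped the promoter of 1 of the 7 members with a promoter at hand, and this background was 3.14% over 17492 protein-coding genes. For unstimulated peaks the figures were 0 of 7 and 0.56%.

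Itgb3 encodes the beta 3 chain of integrin alpha v beta 3 and held more SMAD4 peaks than any other of the 10 loci. All of its peaks lay inside the gene body (mm10 chromosome 11, 104608000 to 104670476, 62.5 kb, transcript NM_016780.2): the unstimulated list had 3 of them and the stimulated list 6. Positions are counted from the lower-coordinate end of the gene body. Exon positions were not used here, so the peaks were not placed in exons, introns or untranslated regions. The unstimulated summits stood within 1.11 kb of each other, at 16.1, 16.7 and 17.2 kb, and the stimulated ones spread from 10.0 to 33.1 kb. No summit lay beyond 53.0% of the gene body. Levels are IP pileups, that is, counts of tags at the summit, per 1000000 IP tags, written as tags per M below. For these counts the caller took each tag as 100 bp long. Fold enrichment, as deposited by the authors, divides the pileup by the local background after adding 1 to each.

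**Figure D1:**
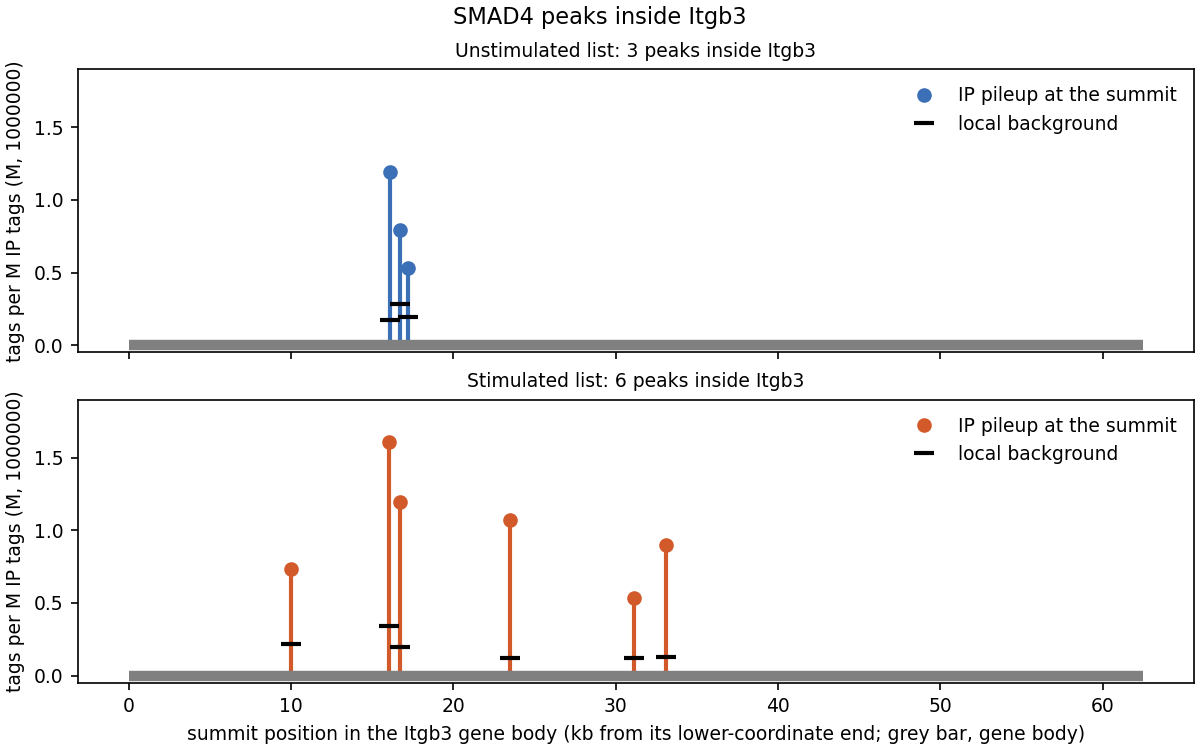
SMAD4 peaks inside Itgb3, by summit position in the gene body (x axis, kb) and level (y axis, tags per M IP tags), for the unstimulated (top) and the stimulated list (bottom). Points are IP pileups, black dashes local backgrounds and the grey bar the gene body; there is 1 pooled value per condition and no error bar. The tallest summit is at 16.1 kb in both lists, with 1.19 and 1.61 tags per M, and peaks at 10.0, 23.5, 31.1 and 33.1 kb appear in the stimulated list only.

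The tallest site of the gene lay at 16.1 kb and was called in both lists with summits 18 bp apart. Its unstimulated peak (104623922 to 104624243) had a pileup of 63, or 1.19 tags per M, and a fold enrichment of 6.40, rank 90 of 1133. Its stimulated peak (104623903 to 104624236) had a pileup of 66, or 1.61 tags per M, but a fold enrichment of 4.47, rank 2266 of 4333. The level was thus higher and the fold enrichment lower in the stimulated list, where the local background was 0.341 tags per M against 0.170. The ratio of levels, stimulated over unstimulated, was 1.35, with a counting interval at 95% of 0.943 to 1.94 that includes 1.

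The neighbouring site at 16.7 kb was called in both lists with summits 3 bp apart. The unstimulated peak (104624672 to 104624870) had a pileup of 42, 0.793 tags per M, and a fold enrichment of 2.69, rank 1062. The stimulated peak (104624594 to 104624877) had a pileup of 49, 1.19 tags per M, and a fold enrichment of 5.56, rank 1134. Here fold enrichment and level both were higher in the stimulated list, and the local background lower, 0.195 against 0.283 tags per M. The ratio of levels was 1.51 (0.977 to 2.33).

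The third unstimulated peak, at 17.2 kb (104625186 to 104625409), overlapped no stimulated peak. Its pileup was 28, 0.529 tags per M, and its fold enrichment 2.61. With a −log10 q of 2.00 it ranked 1133 by q among the 1133 peaks of its list, so it was the call closest to the authors' threshold. The nearest stimulated peak, the one at 16.7 kb, ended 309 bp before it.

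The other stimulated peaks of Itgb3 had no unstimulated counterpart. The strongest of them lay at 23.5 kb (104631355 to 104631746) with a pileup of 44, 1.07 tags per M, and a fold enrichment of 7.50, rank 325, the highest inside the gene. The peak at 33.1 kb (104640932 to 104641274) had a pileup of 37, 0.901 tags per M, and a fold enrichment of 6.13, rank 798. These were also the widest of the unmatched peaks in the gene, 392 and 343 bp.

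The remaining peaks were weaker and narrower. That at 10.0 kb (104617967 to 104618135) was 169 bp wide with a pileup of 30, 0.731 tags per M, and a fold enrichment of 3.10, rank 3933. That at 31.1 kb (104639029 to 104639130) was 102 bp wide with a pileup of 22, 0.536 tags per M, and a fold enrichment of 3.90, rank 2995. Both had a −log10 q under 5, 4.36 and 4.79. Neighbouring stimulated summits were 6.05, 0.675, 6.75, 7.62 and 1.99 kb apart.

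Few genes held as many summits. At least 6 stimulated summits lay inside 7 of the 21887 protein-coding genes (0.032%), and at least 3 unstimulated ones inside 10 (0.0457%). Besides Itgb3 the 7 were Frmd4a, Gse1, Atp6ap2, Ctif, Pde4d and Septin9, of which Atp6ap2, at 29.3 kb, was shorter than Itgb3 and the others were 163 kb or longer. By the summed difference in unstimulated and stimulated summits inside the gene, the genes most like Itgb3 were Sh3bp5 and Me3, with 3 and 5 each, then Ccnjl with 3 and 4, and Smad4 and Bicral with 2 and 5. This likeness stands on counts from 2 peak lists only. The first peaks beyond the window of Itgb3 lay 589 kb from its gene body in both lists, nearest to Tlk2.

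Itgav encodes the alpha v chain that pairs with beta 3 and beta 5. Its locus (chromosome 2, 83722303 to 83806917) had 2 unstimulated and 5 stimulated peaks, and Itgav was the nearest gene to 1 and 4 of them. The main site lay 7.38 kb outside the gene body, on the promoter side, and was called in both lists. Its unstimulated peak (83714804 to 83715020) had a pileup of 50, 0.944 tags per M, and a fold enrichment of 3.64. Its stimulated peak (83714686 to 83715063) had a pileup of 59, 1.44 tags per M, and a fold enrichment of 8.57, rank 176. This was the only shared site of the 10 loci whose counting interval for the ratio of levels lay above 1, at 1.52 (1.03 to 2.27). Local background was lower there in the stimulated list, 0.146 against 0.245 tags per M, so fold enrichment differed by more than the level.

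On the same side of Itgav the stimulated list had 2 further peaks, at 16.3 and 21.2 kb. The nearer (83705892 to 83706007) had 0.926 tags per M and a fold enrichment of 4.33, and the farther (83700799 to 83701197) had 1.29 and 3.86. A stimulated peak inside the gene (83758682 to 83758886) had 1.15 tags per M and a fold enrichment of 5.33. None of these had an unstimulated counterpart. The remaining site, 77.8 kb from Itgav in the unstimulated list, was beside Zc3h15. It had 0.547 tags per M unstimulated and 0.658 stimulated, while its fold enrichment was 4.0 unstimulated and 2.55 stimulated, another site where level and fold enrichment differed in opposite directions.

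Itgb5 encodes the beta 5 chain, another partner of alpha v. It had 0 unstimulated peaks and 1 stimulated peak, inside the gene 7.11 kb after the transcription start (chromosome 16, 33836735 to 33836861). With a pileup of 14, or 0.341 tags per M, this was the lowest level of all member peaks, and its fold enrichment was 3.75 over a local background of 0.0731 tags per M.

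Of the beta 1 receptors, Itgb1 itself had the promoter peak described above and no unstimulated peak. That peak had a pileup of 28, 0.682 tags per M, a fold enrichment of 3.63 and a −log10 q of 5.51, rank 3351 by fold enrichment among 4333. It was thus a modest peak in its list. Itga5, whose product joins beta 1 in the classical fibronectin receptor, had 1 stimulated peak of its own, 11.7 kb outside the gene on the promoter side (chromosome 15, 103378423 to 103378545), with 0.853 tags per M and a fold enrichment of 3.0.

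A much stronger site 38.9 kb to the other side of Itga5 was nearest to Gpr84, 2.86 kb away. The unstimulated peak (103305224 to 103305456) had 1.11 tags per M and a fold enrichment of 5.45. The stimulated peak (103305116 to 103305488) had 1.51 tags per M and a fold enrichment of 10.5, rank 60 of 4333. It had the highest −log10 q of the member peaks, 39.6, but is assigned to Itga5 only by distance.

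The collagen receptor chains Itga1, Itga2 and Itga11 had mostly weak or distant peaks. Itga1 had a stimulated peak 5.69 kb outside the gene on the promoter side (chromosome 13, 115107611 to 115107738) with 0.731 tags per M and a fold enrichment of 4.31. A second stimulated peak inside Itga1 (115077537 to 115077671) had 0.609 tags per M, a fold enrichment of 2.89 and a −log10 q of 2.88. Both were under 140 bp wide, at 128 and 135 bp, and the unstimulated list had 0 peaks at Itga1. Itga2, which lies beside Itga1, had only a stimulated peak 97.8 kb away (114735207 to 114735348, fold enrichment 4.38) that was nearest to Mocs2. This peak was the one closest to the 100 kb limit. The first peak beyond the limit of any of the 10 genes was a stimulated one 122 kb from Itgb4, with a fold enrichment of 7.74, nearest to Trim65.

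Itga11 had the highest fold enrichment of the member peaks, 10.6, rank 57 of 4333, at a stimulated peak 69.2 kb outside the gene on the promoter side (chromosome 9, 62608603 to 62608734). Its level of 0.804 tags per M was below the median of the stimulated member peaks, 0.901. Its local background, 0.0535 tags per M, was the genome-wide floor that the caller applies, and it was the only member peak at that floor, where 5.10% of all stimulated peaks stand. The peak was 132 bp wide. A shared site 44.9 kb to the other side was nearest to Cln6, with 0.755 tags per M unstimulated and 1.15 stimulated.

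The laminin receptor chains Itga6 and Itgb4, which pair with each other, differed in where their peaks lay. Itga6 had a stimulated peak inside the gene (chromosome 2, 71812290 to 71812527) with a pileup of 46, 1.12 tags per M, and a fold enrichment of 8.25, rank 216. The other stimulated peak of the Itga6 locus, 46.8 kb away and 1.35 kb from Pdk1, had 0.950 tags per M and a fold enrichment of 7.02. The unstimulated list had 0 peaks within 100 kb of Itga6. For Itgb4 the 3 stimulated peaks within 100 kb were all nearer to other genes: they lay inside Sap30bp and H3f3b and beside Trim47, with fold enrichments of 4.29, 3.82 and 2.50. Itgb4 had 0 unstimulated peaks as well.

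**Figure D2:**
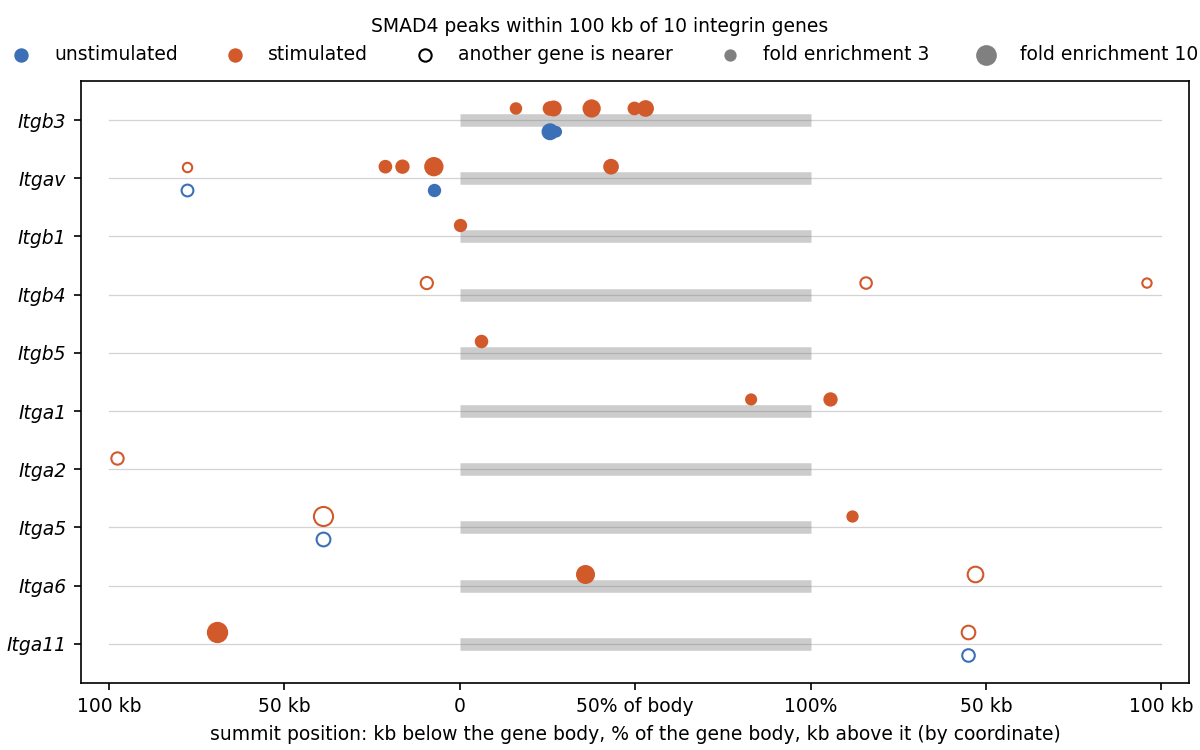
Summits of SMAD4 peaks at the 10 integrin loci (rows), placed in kb outside or percent inside the gene body (x axis, by coordinate; grey bars are gene bodies scaled to 1 length), unstimulated below and stimulated above each line, with point area set by fold enrichment. Open points are nearest to another gene, as are all 3 at Itgb4 and the only one at Itga2; the cluster of filled points is inside Itgb3.

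Over the 10 loci, 4 had an unstimulated and 10 a stimulated peak within 100 kb, where 13.1% and 36.5% of all protein-coding genes did, and 14.5% and 40.5% of genes no shorter than the shortest and no longer than the longest member. A summit inside the gene body was found in 1 unstimulated and 5 stimulated loci (1.98% and 7.08% of all protein-coding genes, and 2.82% and 10.4% of those within the members' range of lengths). The member was the nearest gene to a peak for 2 genes unstimulated and 8 stimulated (3.79% and 12.2%). Since the genes were chosen for their peaks, these counts say nothing about integrins as a group. Per peak, the member was nearest for 4 of 7 unstimulated and 17 of 25 stimulated peaks, and 3 and 10 summits lay inside a member's body, where 43.1% and 46.7% of all summits lay inside some protein-coding gene. The median fold enrichment of member peaks was 4.0 unstimulated and 4.33 stimulated, beside 4.0 and 4.56 over each list, and the median widths were 217 and 239 bp, beside 183 and 207 bp.

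The other genes of the family were looked up as well. Of all 26 integrin alpha and beta genes in RefSeq, 9 were nearest to a stimulated and 2, Itgb3 and Itgav, to an unstimulated peak, where 12.2% and 3.79% of all protein-coding genes were. Within 100 kb of a stimulated peak lay 18 of the 26 and of an unstimulated peak 4 (36.5% and 13.1% of all). These counts still rest on the choice of the 10 genes, which make up 8 of the 9 and 10 of the 18. Of the 16 genes outside the chosen 10, 8 had a stimulated peak within 100 kb (Itgb6, Itga10, Itgal, Itga7, Itgae, Itga3, Itga2b and Itgb7) and 0 an unstimulated one. Only Itga3, a laminin receptor chain, 1 of the 16, was itself the nearest gene. Itga3 had 5 stimulated peaks, spread over 9.32 kb and lying 2.84 to 12.2 kb outside the gene on chromosome 11. Their fold enrichments ran from 3.14 to 4.88 and their levels from 0.512 to 0.950 tags per M. In both measures each was below the stimulated Itgb3 peaks at 16.7 and 23.5 kb. None had an unstimulated counterpart.

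In the unstimulated list 6 of 7 member peaks overlapped a stimulated peak (85.7%, exact binomial interval 42.1 to 99.6), beside 95.9% over the list. In the stimulated list 6 of 25 overlapped an unstimulated peak (24%, 9.36 to 45.1), beside 24.9%. These intervals take each peak as a separate draw. The genes were chosen for their peaks, however, and 3 of the unstimulated and 6 of the stimulated peaks lie in Itgb3 alone. The intervals therefore show only how few peaks there are. Both shares are close to those of all peaks. The level was higher in the stimulated list at 6 of 6 shared sites, as it was at 98.4% of 1078 shared pairs in the genome. The ratios ran from 1.20 to 1.52 with a median of 1.43, and the median over all pairs was 1.47 (interquartile range 1.29 to 1.68). An interval above 1 was found at 1 of 6 sites and at 36.6% of all pairs. The integrin sites thus lay in the middle and lower part of the genome-wide distribution, between the 13.6th and the 57.4th percentile.

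**Figure D3:**
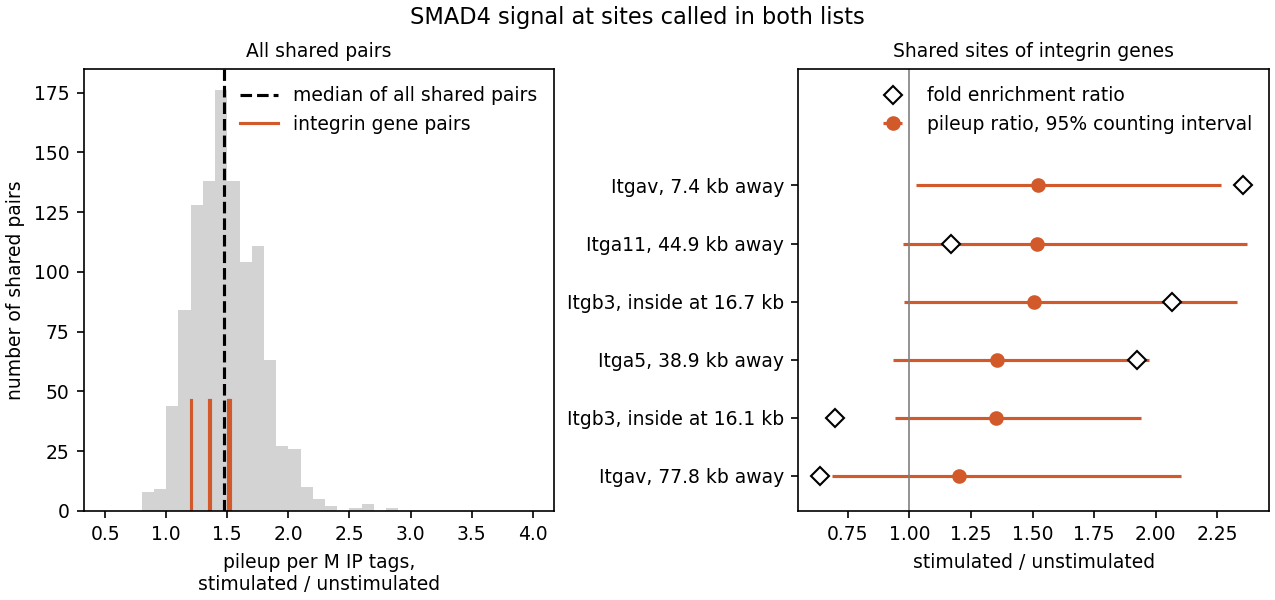
Left, number of shared pairs (y axis) by the ratio of pileup per M IP tags, stimulated over unstimulated (x axis); the dashed line is the median of all pairs, 1.47, and the short lines are the 6 integrin pairs. Right, the pileup ratio of each integrin pair with its 95% counting interval (filled) and its ratio of fold enrichments (open); pileup ratios are all above 1, while fold enrichment ratios fall on both sides of 1.

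Fold enrichment was lower in the stimulated list at 2 of the 6 shared sites, at 16.1 kb in Itgb3 and beside Zc3h15, with ratios of 0.698 and 0.636. Over all shared pairs 17.3% were lower. At both sites the local background per tag was higher in the stimulated list, by ratios of 2.01 and 1.99. At the shared site 7.38 kb from Itgav the background ratio was 0.596 and the fold enrichment ratio 2.35. The background comes from the input DNA, and its part in the difference of fold enrichments between conditions was not tested beyond these values.

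For the 19 stimulated member peaks with no unstimulated counterpart, the unstimulated level is unknown. The pileup a call would have needed in the unstimulated list can be computed from the authors' Poisson comparison and the lowest −log10 p of that list, 6.03, taking the same background per tag as in the stimulated list. It came to 14 to 40 tags over the 19 sites. The stimulated level reached the needed one at all 19, as it did at all 3245 stimulated peaks without a counterpart. Reaching it therefore sets no member apart. The factor between the levels was 3.04 at Itga11, whose background was at the genome-wide floor, and 2.83 inside Itga6. In Itgb3 it was 2.58 and 2.17 at 23.5 and 33.1 kb, and 1.35 and 1.25 at 31.1 and 10.0 kb. At Itgb1 it was 1.34. A site whose level was lower by 1.47, the median ratio of all shared pairs, would have passed at 12 of the 19 (63.2%). Over the 3245 such peaks in all the share was 49.7%. At the other 7, among them Itgb1, Itgb5 and the weaker Itgb3 peaks, such a site would not have been listed. Their absence from the unstimulated list thus does not separate them from the shared sites. The ratio of 1.47 comes only from sites called in both lists, and the ratio at the 19 is unknown. The factors above hold only for equal backgrounds, and at the shared integrin sites the background ratio ranged from 0.596 to 2.01. The narrowest peak in either list was 100 bp wide, so a shorter stretch above the threshold would also be missing.

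**Figure D4:**
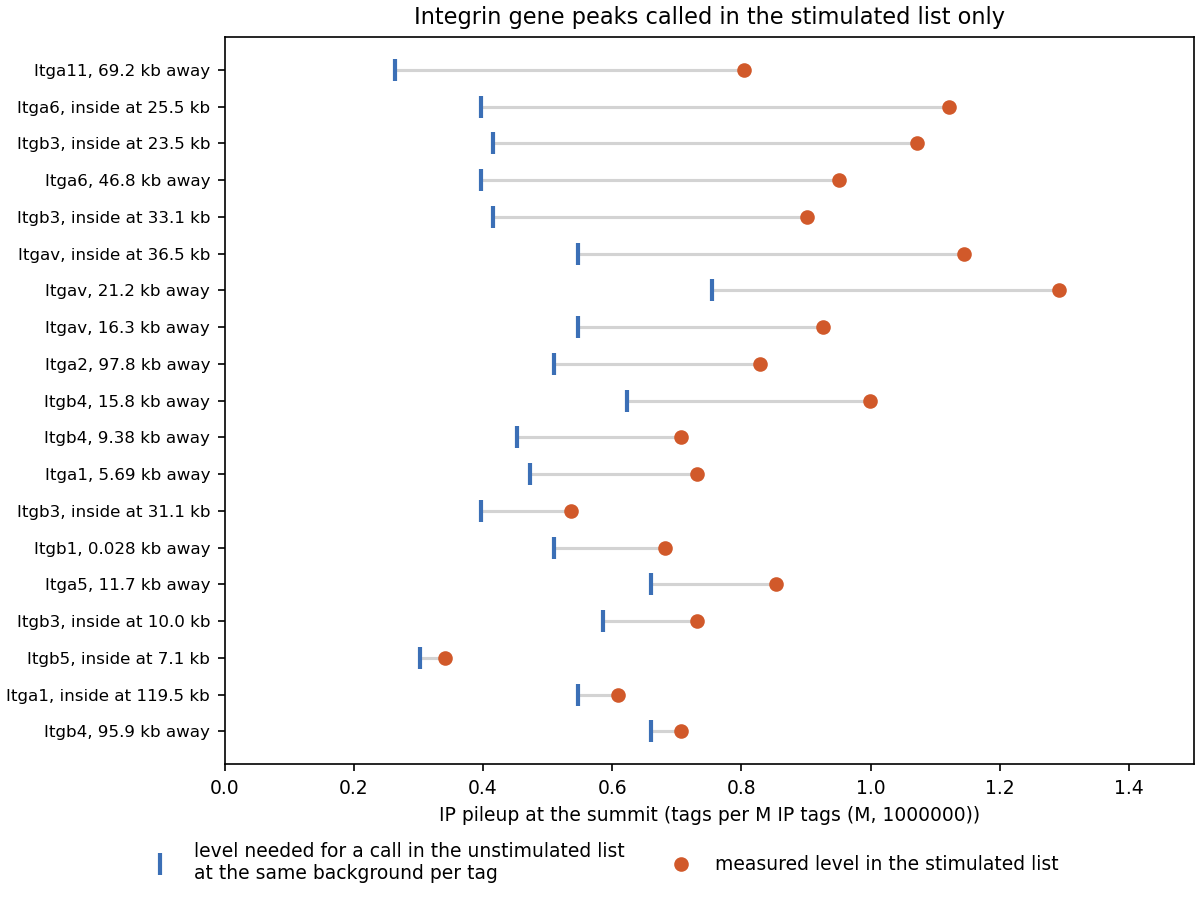
The 19 integrin gene peaks called only in the stimulated list (rows), with their measured level (filled points) and the level a call would have needed in the unstimulated list at the same background per tag (vertical marks), both in tags per M IP tags. Rows are ordered by the ratio of the measured to the needed level, from 3.04 at Itga11 (top) to 1.07 at the peak 95.9 kb from Itgb4 (bottom).

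Genes that act with integrins were looked up in the same way. The lists of these genes were drawn up with earlier results of these data known. Their counts therefore describe them and were given no test, and the background shares beside them were not matched for gene length. Among 20 genes of matrix and adhesion ligands, 9 were nearest to a stimulated peak and 2, Col4a1 and Lama4, to an unstimulated one, beside 12.2% and 3.79% of all protein-coding genes. Vwf, the blood glycoprotein von Willebrand factor, had the highest stimulated fold enrichment, 9.70, over a local background at the genome-wide floor. Its level was 0.731 tags per M, near the median of all stimulated peaks, 0.707. Col4a1, a chain of basement membrane collagen, had 7.91 inside the gene, where the unstimulated value was 4.84. Lama4, a laminin chain of endothelial basement membranes, held 3 unstimulated and 4 stimulated peaks, the strongest with 7.21. Col4a2, the partner chain of Col4a1, had 2 stimulated peaks inside the gene, with 6.42 and 3.23, and Fn1, which encodes fibronectin, had 4.75 at a stimulated peak 0.166 kb from the gene. Neither was nearest to an unstimulated peak within 100 kb.

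Among 25 genes of adaptors and signalling proteins at the cytoplasmic side of integrins, 13 were nearest to a stimulated and 5 to an unstimulated peak, beside the same 12.2% and 3.79%. The limits given for the ligand list hold for these counts as well. Tns3, an adaptor of the tensin family, had a peak inside the gene called in both lists, with 0.944 tags per M unstimulated and 1.51 stimulated and fold enrichments of 5.10 and 9.26. Parvb, a parvin that links integrins to actin, held 2 peaks in each list. Its higher stimulated fold enrichment, 7.78, was at the peak with the lower level, 1.17 tags per M. The other stimulated peak had 5.08 and 1.46 tags per M. Pxn, which encodes the focal adhesion scaffold paxillin, had a pair of shared sites inside the gene with stimulated levels of 1.68 and 1.46 tags per M, and unstimulated levels of 1.09 at each. Tns1, another tensin, had a stimulated peak inside the gene with a fold enrichment of 6.67. Actn1, which encodes the actin crosslinker alpha-actinin, had its highest stimulated fold enrichment, 5.95, at a peak 25.6 kb from the gene. That peak had only 0.439 tags per M over a local background at the genome-wide floor. The Actn1 peak inside the gene had 0.731 tags per M and a fold enrichment of 2.38. Neither Tns1 nor Actn1 was nearest to an unstimulated peak. Expression and open chromatin were not measured in this series, so how many peaks genes active in endothelium collect in general was not tested.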

How the data were processed

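SMAD4 IP and input DNA libraries entered through 1 peak list per condition. Per the file headers, the authors called peaks with MACS2 2.1.0.20140616 on merged IP against merged input. They kept 1 tag per position, took each tag as 100 bp long, sampled the larger set down and used a q cutoff of 0.01. Band width differed (300 unstimulated, 200 stimulated), as did tag length (146 and 140 bp), which was above those 100 bp in both. MACS2, HOMER and the build mm10 are named in the submitters' processing notes, and the sources used here give no aligner. The authors deposited pileup as a coverage signal not scaled to depth, fold enrichment as a ratio, and −log10 p and −log10 q values.

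Here pileups were divided by IP tags (52971023 and 41044888), and each peak's local background was computed back from its fold enrichment and pileup; the p-values recomputed from it differed from the deposited −log10 values by at most 0.000987%. Overlap meant at least 1 bp, and each peak was paired once, by closest summits. Counting intervals on ratios of levels are exact binomial at 95% and cover counting error within pooled libraries only. Intervals on shares of peaks are also exact binomial at 95%, and take each peak as a separate draw. Python 3.11.15, pandas 2.3.3 and scipy 1.17.1 were used, and the code was tested on simulated data. All peaks inside Itgb3, and all peaks inside or nearest to the other members, are named; from the other lists at most 5 genes by fold enrichment; the genes most like Itgb3 are 5, by summed difference in counts, ties by gene length. Members and lists were chosen with earlier results of these data known. No sequence outside RefSeq promoters was used, so other peaks were not searched for motifs.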

Additional observations from a re-analysis of the deposited data

How the results depend on the processing

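No paired analysis was possible because each condition was deposited as 1 pooled peak list, and no replicate could be left out for the same reason. Of 84 recomputed values, 64 stayed within 1.5 times of, or within the counting interval of, the reported value. Some of the 64 could not change under their setting, as with unstimulated member peaks when only the stimulated list was shortened. The 64 are therefore no measure of stability. The values outside these limits were mostly counts that fall because peaks are removed by construction. A window of 10 kb left 4 unstimulated and 14 stimulated member peaks, with 3 shared in each list. A −log10 q of at least 10 left 4 and 13 peaks, 1 unstimulated peak inside Itgb3, and 2 and 10 peaks nearest to a member; a minimum of 5 left 1 unstimulated peak inside Itgb3 and 2 unstimulated peaks nearest to a member. With the stimulated list shortened to 1133 peaks, 12 member peaks remained in it, 9 of them nearest to a member. Widths of at least 200 bp left 4 and 16 peaks, 9 stimulated ones nearest to a member and 3 shared in each list. Inside Itgb3, 4 stimulated peaks were counted under each of these filters on q, length of the list and width. Relative to the median of all shared pairs, the median ratio of member levels turned from 1.43 to 0.970, so the integrin sites were not higher relative to shared sites in general. The 100 bp around the Itgb1 summit held 0 CAGAC matches, against 1 under the part of the peak that lay in the promoter sequence. Leaving out predicted genes, asking for an overlap of 50% of the shorter peak or pairing summits within 100 bp changed none of the counts. Predicted genes enter only the choice of the nearest gene, and the settings on overlap and summits only the shared peaks. Under these settings the other counts could not change.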
